A study of Mus musculus with 8 samples.

Results

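Splicing was described for 6 genes whose products take part in splice site recognition or carry arginine/serine-rich domains: U2af2, Slu7, Rbm39, Acin1, Luc7l2 and Rsrp1. They were 6 of the 638 genes listed in either of the 2 deposited splicing tables. Every entry under these 6 gene names was taken. The genes were selected on the splicing changes in these same tables, so all their values are descriptions, and none is tested here.

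The cells were hepatocytes from livers of Srsf3 flox/flox mice of the C57BL/6J strain, kept in culture. For 48 h they were exposed to AAV, an adeno-associated virus, carrying Cre recombinase (genotype Srsf3-KO) or green fluorescent protein (GFP; genotype Srsf3-flox), with 4 libraries in each group. Both groups carried the floxed alleles and a virus, so the groups differed in what the virus expressed. The age and sex of the mice, the promoter that drives Cre and whether the 4 libraries of a group came from separate animals were not given in the sources used here. The authors' p-values may thus measure technical spread alone. In Srsf3 itself, the junction from exon 1 to exon 2 (chr17:29032786-29036241, mm10) had a share of 0.998 after AAV-GFP and 0.157 after AAV-Cre. Gene levels were not part of the tables, so the hepatocyte label could not be checked against levels. Of 22 cell type markers, the 1 gene listed for splicing was Cd68, a Kupffer cell marker, and the 6 hepatocyte markers were not listed.

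Splicing begins when the U1 particle pairs with the 5′ splice site of an intron and the U2AF heterodimer binds the pyrimidine tract and AG at its 3′ end. SR proteins such as SRSF3 bind exons and help these factors to find weak sites. Many genes of splicing factors carry exons or introns whose inclusion brings in a premature stop codon. Such a transcript can be removed by nonsense-mediated decay, a pathway that reads a stop codon lying upstream of an exon junction.

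The first table lists local splicing variations, sets of junctions that leave or enter 1 exon. For each junction the authors deposited a percent spliced in (PSI) per group, the junction's share of its set on a scale of 0 to 1, and an expected change. All PSI values below are the authors' group values, and changes are AAV-Cre minus AAV-GFP. The table holds 1 value per group, so neither the spread between libraries nor the depth behind a PSI is known. The second table lists junction usage events with a change in PSI, a p-value and a q-value.

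The 6 genes held 9 of the 862 listed local variations and 5 of the 498 listed junction usage events. All 9 variations had a junction with an expected change of at least 0.2, as did 95.2% of all listed variations. Nearly every listed variation is past this change, so nothing is read from the count of 9. Of the 5 events, 1 passed a q-value of 0.05 with a change of at least 0.1 (U2af2), against 11.4% of all listed events. Counting either table, all 6 genes were called, against 58% of the listed genes. A local variation, nearly always called, was listed for 5 of the 6 genes and for 354 of the 638. Nothing is therefore read from this contrast either. U2af2 appeared among the junction usage events alone, Slu7 among the local variations alone, and the other 4 genes in both tables.

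The 9 variations listed 26 junctions or retained introns, 21 of them distinct, since 1 junction can be counted from both of its ends. Of the distinct ones, 14 changed by at least 0.2 in a variation, 7 higher and 7 lower in AAV-Cre. Shares in a set sum to 1, so a rise comes with a fall, and nothing is read from this split. The same count over all listed junctions was not made. The largest change per variation had a median of 0.294 over the 9 (0.211 to 0.533), and of 0.329 over all 862 (0.0939 to 0.974). None of the 9 lay in a window of 100 kb that holds 8 or more listed variations. Over the 439 variations outside such windows the median was 0.304 (0.191 to 0.974), closer to that of the 9. Rsrp1 held the largest of the 9, which ranked 164 among the 862, and Slu7 the smallest, which ranked 783. These ranks include the variations inside such windows.

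**Figure D1:**
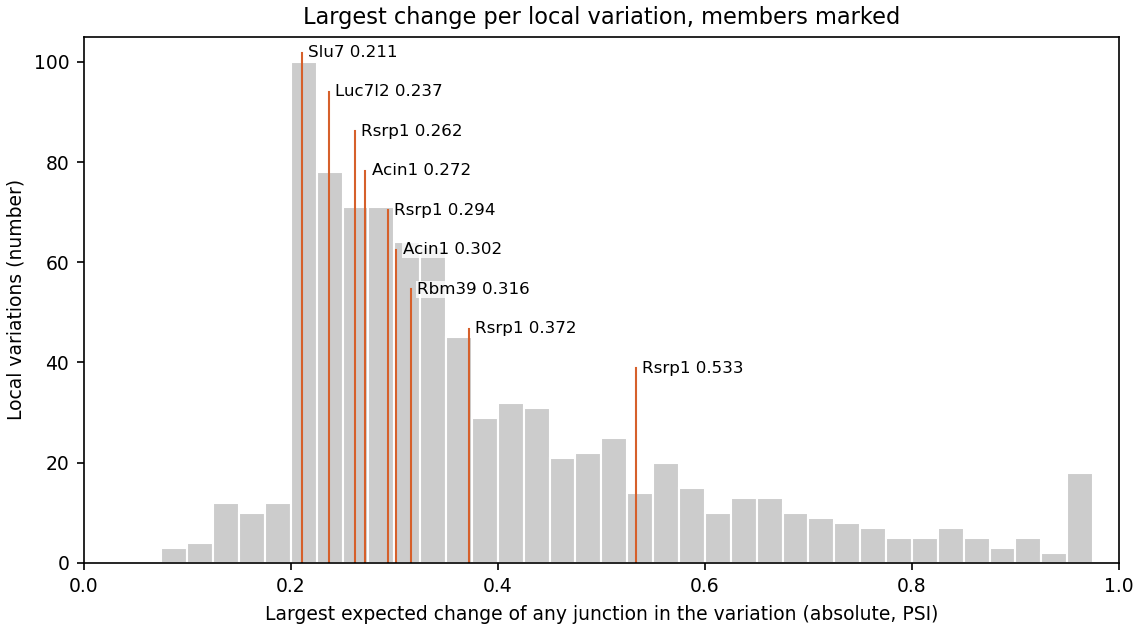
Number of local variations (y axis) by the largest expected change of any of their junctions (x axis, absolute PSI), with grey bars for all 862 variations and orange lines for the 9 of Slu7, Luc7l2, Acin1, Rbm39 and Rsrp1; line height has no meaning. The 9 lines run from 0.211 for Slu7 to 0.533 for Rsrp1, and the median of all variations is 0.329. Over the 439 variations outside windows of 100 kb that hold 8 or more, where the 9 lie, the median is 0.304.

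U2af2 encodes the large subunit of U2AF, which binds the pyrimidine tract of 3′ splice sites. Its event concerned the junctions that leave exon 5 (chr7:5068032-5068183, + strand). The pair of 3′ ends lies in different exons, a 64-nt exon at chr7:5068733-5068796 and exon 6 at chr7:5069444-5069560. In the authors' deposited table, usage of the junction into the 64-nt exon was higher in AAV-Cre by 0.137, and the junction into exon 6 was lower by the same amount (-0.137; p = 2.93e-07, q = 0.000312). Group PSI values of U2af2 are not in the local variations, so a level for each group is not given. The 64-nt exon is part of 2 of the 9 transcripts of U2af2 in GENCODE vM21, in neither case as coding sequence.

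The sequences across these junctions show what the 64-nt exon does to the reading frame. They come from GENCODE vM21 transcripts (mm10), run 5′ to 3′ and join the last 15 bases of exon 5 to the first 15 of the next exon. Capitals mark the first 3 bases of the 64-nt exon in the first line and the bases of exon 6 in the second.
U2af2 exon 5 to the 64-nt exon: tttggcattactgagTGAaatattgtgggg
U2af2 exon 5 to exon 6: tttggcattactgagGAGGCTATGATGGAC
Exon 5 ends on a codon boundary, and the 64-nt exon opens with TGA. Put into the transcript of 471 codons, the exon stops the frame after 162 codons, with 7 exon junctions downstream and 856 nt to the last of them. The pyrimidine tract before exon 6 held 17 pyrimidines in the 20 bases before its AG. The donor of exon 5 reads GTACTG in its first 6 intron bases, and that of the 64-nt exon GTAAGG.

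Slu7 encodes a factor of the second catalytic step of splicing that acts in the choice of the 3′ splice site, and it has been linked to the differentiated state of hepatocytes. Its variation covered the junctions that enter exon 2 (chr11:43437345-43437530, + strand) from alternative upstream exons. The exon listed for this variation starts slightly earlier, at 43437343, but its junctions enter at 43437345. All the upstream exons lie in the 5′ untranslated region, since the coding sequence starts at 43437361, within exon 2, and no sequence is printed for them. The junction from exon 1, whose donor is at 43433819, had a PSI of 0.710 after AAV-GFP and 0.870 after AAV-Cre. The junction from a 79-nt exon at chr11:43436354-43436432 went from 0.282 to 0.064, an expected change of -0.211. It was the 1 junction of Slu7 past 0.2.

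The same extra exon was also joined from a donor farther downstream, at 43436485, which would make it 132 nt long from the same first base and is in none of the 6 annotated transcripts. This junction had a PSI of 0.007 after AAV-GFP and 0.064 after AAV-Cre. Both donors together took 0.289 of the reads entering exon 2 after AAV-GFP and 0.128 after AAV-Cre. Within that sum, the farther donor took 0.0242 after AAV-GFP and 0.5 after AAV-Cre, so the 2 donors were at the same PSI in AAV-Cre. An upstream 158-nt exon at chr11:43435054-43435211 stayed near 0, with a PSI of 0.001 and 0.003. For exon 1 the deposited expected change was 0.0643, against a difference of 0.160 between the group PSI values. For the farther donor it was 0.00697, against 0.057.

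Rbm39 encodes a protein related to U2AF2 that binds near 3′ splice sites and is degraded in cells treated with aryl sulfonamides such as indisulam. Both of its entries lay between exon 2 and exon 4 of the 530-codon transcript, on the - strand. The local variation covered the ways into an alternative exon whose 5′ end is at chr2:156178952. A read could enter it by splicing from exon 2 (chr2:156179177-156179240) or through the retained intron of 224 nt between them (chr2:156178953-156179176). The retained intron had a PSI of 0.160 after AAV-GFP and 0.476 after AAV-Cre, an expected change of 0.316. The spliced junction mirrored it, at 0.840 and 0.524, since the 2 shares sum to 1. The table's exon is 394 nt long (chr2:156178559-156178952), and reads of the retained intron cannot be told apart from RNA not yet spliced. The set holds no junction that skips the alternative exon, so these values do not say how often exon 2 was joined to exon 3.

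The retained intron is printed whole because it shows both of its splice sites. It runs 5′ to 3′ on the - strand (chr2:156178941-156179188, mm10), with the last 12 bases of exon 2 and the first 12 of the alternative exon in capitals.
Rbm39 retained intron: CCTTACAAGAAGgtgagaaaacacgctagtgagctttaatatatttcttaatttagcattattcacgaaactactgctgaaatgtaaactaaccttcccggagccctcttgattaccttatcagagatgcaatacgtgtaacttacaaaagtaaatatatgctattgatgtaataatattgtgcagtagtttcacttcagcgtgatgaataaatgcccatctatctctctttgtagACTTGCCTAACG
The donor reads GTGAGA, and the 20 bases before the acceptor AG hold 16 pyrimidines. Cut at its annotated 3′ end the alternative exon is 73 nt long and occurs in 5 of the 25 transcripts of Rbm39, 4 of them annotated as nonsense-mediated decay. Put into the 530-codon transcript, the 73-nt exon stops the frame after 40 codons. With the intron retained as well, the frame stops after 25 codons. In both forms 15 exon junctions lie downstream of the stop codon, so both sides of this variation carry a premature stop.

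The second entry of Rbm39 concerned the junctions into exon 4 (chr2:156172828-156173022). In the authors' deposited table, the junction from a 72-nt exon at chr2:156174097-156174168 was used more in AAV-Cre by 0.192, and that from exon 3 (chr2:156177336-156177385) less (-0.192). With p = 0.00936 and q = 0.31 in the authors' deposited table, this event did not pass the q-value of 0.05. The 72-nt exon is annotated in 3 of the 25 transcripts, 2 of them as nonsense-mediated decay. Its length is a multiple of 3, yet it holds a stop codon in the frame, shown in capitals at the end of the stretch from the exon's first base (chr2:156174126-156174168, - strand).
Rbm39 72-nt exon, up to its stop codon: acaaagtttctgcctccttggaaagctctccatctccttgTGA
With this exon in place the frame stops after 47 codons, with 14 exon junctions downstream.

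Luc7l2 encodes a U1-associated protein related to yeast Luc7, which acts in the recognition of 5′ splice sites. Its variation left exon 7 (chr6:38593378-38593469, + strand), and reads went to a 30-nt exon 8 (chr6:38598785-38598814) or past it to exon 9 (chr6:38603277-38603468). The junction into exon 8 had a PSI of 0.290 after AAV-GFP and 0.567 after AAV-Cre, an expected change of 0.237. The skipping junction went from 0.710 to 0.433. The junction that held most reads thus differed between the groups: skipping in AAV-GFP and inclusion in AAV-Cre. By junction usage the same exon was, in the authors' deposited table, included more in AAV-Cre by 0.308, with p = 0.0357 and q = 0.576, which did not pass.

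Exon 8 keeps the reading frame. The transcript has 392 codons with it and 382 without it, and 3 of the 13 annotated transcripts hold it, 2 of them protein coding. The exon is printed in capitals between the last 15 bases of exon 7 and the first 15 of exon 9.
Luc7l2 30-nt exon: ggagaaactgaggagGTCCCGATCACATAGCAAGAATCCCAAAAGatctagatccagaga

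Acin1 encodes acinus, an RS-domain protein that forms the ASAP complex with RNPS1 and SAP18 and associates with the exon junction complex. It had 2 local variations, on the - strand. The first left exon 10 (chr14:54648088-54648130) for a pair of 3′ splice sites of exon 11 that lie 3 nt apart. The table's own exon at this donor is longer than the annotated exon 10 (chr14:54648088-54648578). The site that makes exon 11 longer (54646836) had a PSI of 0.568 after AAV-GFP and 0.855 after AAV-Cre, an expected change of 0.272. The site that makes it shorter (54646833) had a PSI of 0.432 and 0.145. The same pair of junctions is also listed under Gm17606, a gene model on the opposite strand, with PSI values of 0.567 and 0.859 for the longer form. These are the same positions and no second observation.

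The added bases are in capitals in the joined sequence of exons 10 and 11.
Acin1 longer form: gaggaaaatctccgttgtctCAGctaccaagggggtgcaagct
Acin1 shorter form: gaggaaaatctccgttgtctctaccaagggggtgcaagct
The longer form holds CAG in addition, and the frame is kept, with 1338 codons against 1337.

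The second variation of Acin1 entered exon 9 (chr14:54651717-54651858) from 4 upstream donors. The donor of exon 8 (chr14:54662168-54662283), which belongs to the long form of the gene, went from a PSI of 0.817 to 0.539, an expected change of -0.261. The donor at 54653214 went from 0.1 to 0.397, an expected change of 0.302. It ends exons found in shorter transcripts of Acin1, as an exon of 104 nt in 3 of the 26 transcripts, of 65 nt in 3 and of 26 nt in 1. Of these 2 donors together, the share at 54653214 was 0.109 after AAV-GFP and 0.424 after AAV-Cre. The donors at 54653535 (0.069 and 0.058) and 54653542 (0.012 and 0.002) were low in both groups, and the latter is in no annotated transcript. By junction usage, in the authors' deposited table, the junction from the short-form exon was higher by 0.429 and that from exon 8 lower (-0.429), with p = 0.0282 and q = 0.526, which did not pass.

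As the first exon of an annotated short transcript, the short-form exon starts the coding sequence. Its 26 bases (chr14:54653214-54653239, - strand) are shown with the start codon in capitals, because reads through the donor at 54653214 can come from a transcript that lacks the first 8 exons of the long form.
Acin1 start codon of the short form: ATGatgttctcagacagcagagcagg
Whether the reads came from this first exon or from the 65-nt and 104-nt exons is not resolved by a single junction.

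**Figure D2:**
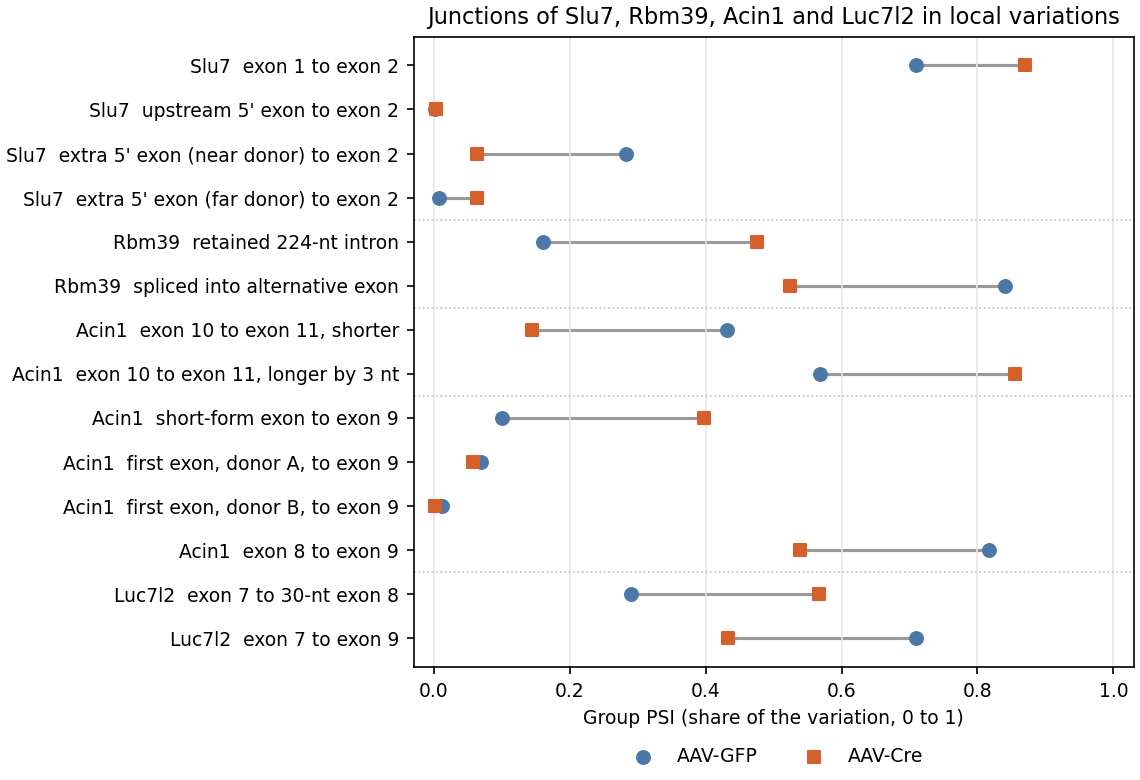
Group PSI (x axis, share of the variation from 0 to 1) of each junction or retained intron in the local variations of Slu7, Rbm39, Acin1 and Luc7l2, with a blue circle for AAV-GFP and an orange square for AAV-Cre; dotted lines separate variations and there are no error bars, as the table has 1 value per group. The circle and square lie farthest apart for the retained intron of Rbm39 (0.160 and 0.476) and its mirrored junction, and closest for the upstream 5′ exon of Slu7 (0.001 and 0.003). Donors A and B of Acin1 are those at 54653535 and 54653542.

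Rsrp1 encodes an arginine/serine-rich nuclear protein whose function is little described. It had 4 of the 9 variations and the largest change of the 6 genes, all between exon 3 (chr4:134925293-134925432, + strand) and exon 4 (chr4:134926735-134926818). A 45-nt exon (chr4:134925777-134925821) and a 125-nt exon (chr4:134926026-134926150) lie in that intron. The 45-nt exon is in 2 of the 8 annotated transcripts, and the 125-nt exon with these borders is in none. Both exons are printed with 30 intron bases before and 10 after, and the competing sites of exon 3 and exon 4 follow them, all with exon bases in capitals and intron bases in lower case. The first stretch is chr4:134925747-134925831 and the second chr4:134925996-134926160 (mm10, GENCODE vM21).
Rsrp1 45-nt exon: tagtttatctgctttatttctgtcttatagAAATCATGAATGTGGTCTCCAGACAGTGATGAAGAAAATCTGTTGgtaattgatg
Rsrp1 125-nt exon: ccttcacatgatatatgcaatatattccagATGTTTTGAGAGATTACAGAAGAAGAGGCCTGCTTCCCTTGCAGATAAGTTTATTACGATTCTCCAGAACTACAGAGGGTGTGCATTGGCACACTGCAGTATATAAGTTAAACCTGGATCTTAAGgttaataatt
Rsrp1 exon 3 donor: AAAGGTGGAGgtaagtgcct
Rsrp1 exon 4 acceptor: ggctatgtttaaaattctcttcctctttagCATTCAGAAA
The 20 bases before the acceptor AG hold 16 pyrimidines at the 45-nt exon, 11 at the 125-nt exon and 16 at exon 4. The first 6 intron bases of the donors read GTAAGT after exon 3, GTAATT after the 45-nt exon and GTTAAT after the 125-nt exon.

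Reads leaving exon 3 went mainly to exon 4 in AAV-GFP and mainly to the 45-nt exon in AAV-Cre. The junction from exon 3 to exon 4 had a PSI of 0.887 after AAV-GFP and 0.367 after AAV-Cre, an expected change of -0.533. The junction from exon 3 to the 45-nt exon had a PSI of 0.097 and 0.548, an expected change of 0.462. The junction from exon 3 to the 125-nt exon, which is in no annotated transcript, had a PSI of 0.016 and 0.085, with an expected change of 0.0412. Together the 2 extra exons took 0.113 of the reads leaving exon 3 after AAV-GFP and 0.633 after AAV-Cre.

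**Figure D3:**
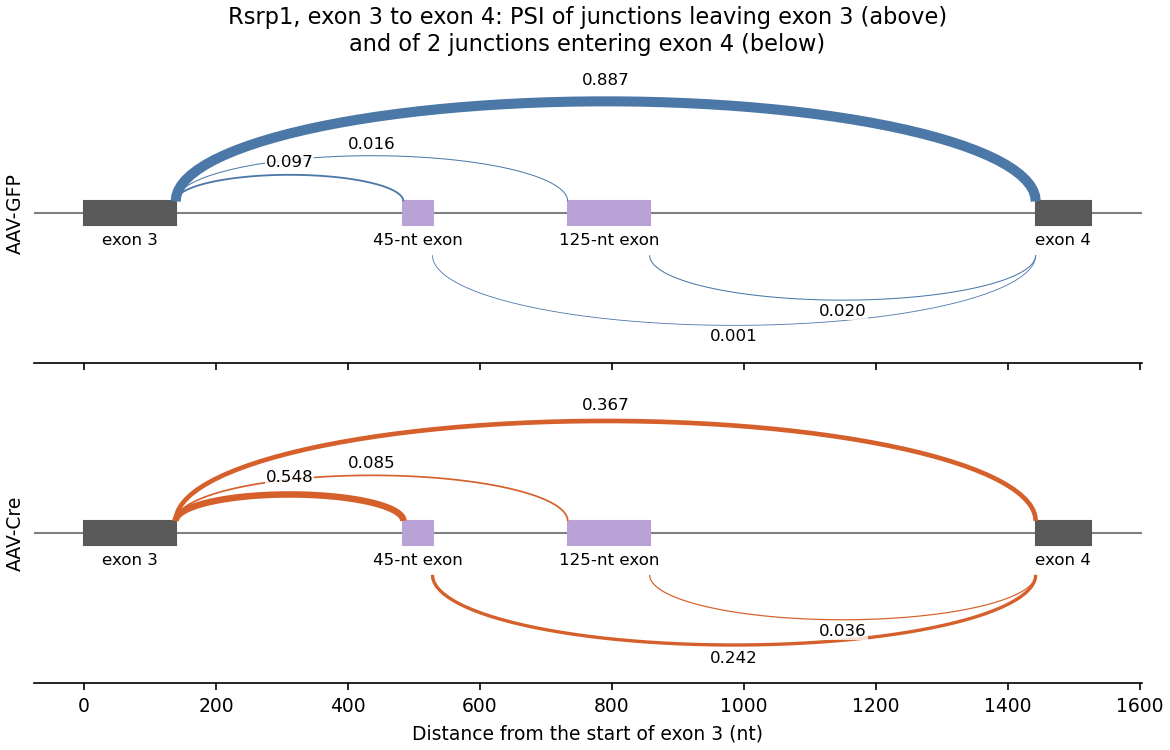
Map of Rsrp1 from exon 3 to exon 4 (x axis, distance from the start of exon 3 in nt) in AAV-GFP (upper) and AAV-Cre (lower); arcs above the exons are junctions leaving exon 3, arcs below are junctions entering exon 4 from the extra exons, and line width and printed values give the group PSI. The arc from exon 3 to exon 4 carries 0.887 after AAV-GFP and 0.367 after AAV-Cre, and the arc to the 45-nt exon 0.097 and 0.548.

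Seen from exon 4, the shift was smaller. Reads entering exon 4 from exon 3 had a PSI of 0.979 after AAV-GFP and 0.720 after AAV-Cre, an expected change of -0.262. Those from the 45-nt exon had a PSI of 0.001 and 0.242, an expected change of 0.226. Those from the 125-nt exon had a PSI of 0.020 and 0.036, with an expected change of 0.000789. Both extra exons together therefore supplied 0.021 of the reads entering exon 4 after AAV-GFP and 0.278 after AAV-Cre. In AAV-Cre this is below the 0.633 of reads that left exon 3 for them. The 2 shares have different sets of junctions beneath them and were not tested against each other.

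Between the extra exons lies an intron (chr4:134925822-134926025). The table does not list the 45-nt exon by itself here: its exon for this variation is 376 nt long (chr4:134925446-134925821), starts shortly after exon 3 and ends with the 45-nt exon. Reads from the 45-nt exon, from the longer listed exon and from RNA with the whole intron unspliced cannot be told apart at its 3′ end. Among reads leaving this listed exon, the intron had a PSI of 0.969 after AAV-GFP and 0.688 after AAV-Cre, an expected change of -0.294. The junction to the 125-nt exon had a PSI of 0.030 and 0.229 (expected change 0.204), and the junction to exon 4 of 0.001 and 0.088 (0.0512). Spliced reads thus made up 0.031 of those leaving the listed 376-nt exon after AAV-GFP and 0.317 after AAV-Cre. Of the spliced reads, 0.968 went to the 125-nt exon after AAV-GFP and 0.722 after AAV-Cre, and the rest to exon 4. The AAV-GFP split rests on PSI values of 0.030 and 0.001, near 0 and of unknown depth, so little weight can be put on it.

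The entry into the 125-nt exon gave the same intron from its other end. The intron had a PSI of 0.944 after AAV-GFP and 0.583 after AAV-Cre, an expected change of -0.372. The junction from the donor at the end of the 45-nt exon had a PSI of 0.038 and 0.328 (0.303), and that from exon 3 of 0.018 and 0.087 (0.0483). Rbm39 and Rsrp1 each had 1 retained intron listed, and they differed in direction: that of Rbm39 was higher in AAV-Cre and that of Rsrp1 lower. For junction usage the authors' deposited table holds Rsrp1 as a composite event over the same positions. Of its 7 values in the authors' deposited table, 2 were finite (0.357 and -0.357), with p = 0.00037 and q = 0.0517, which did not pass. The header does not say to which junction each value belongs.

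**Figure D4:**
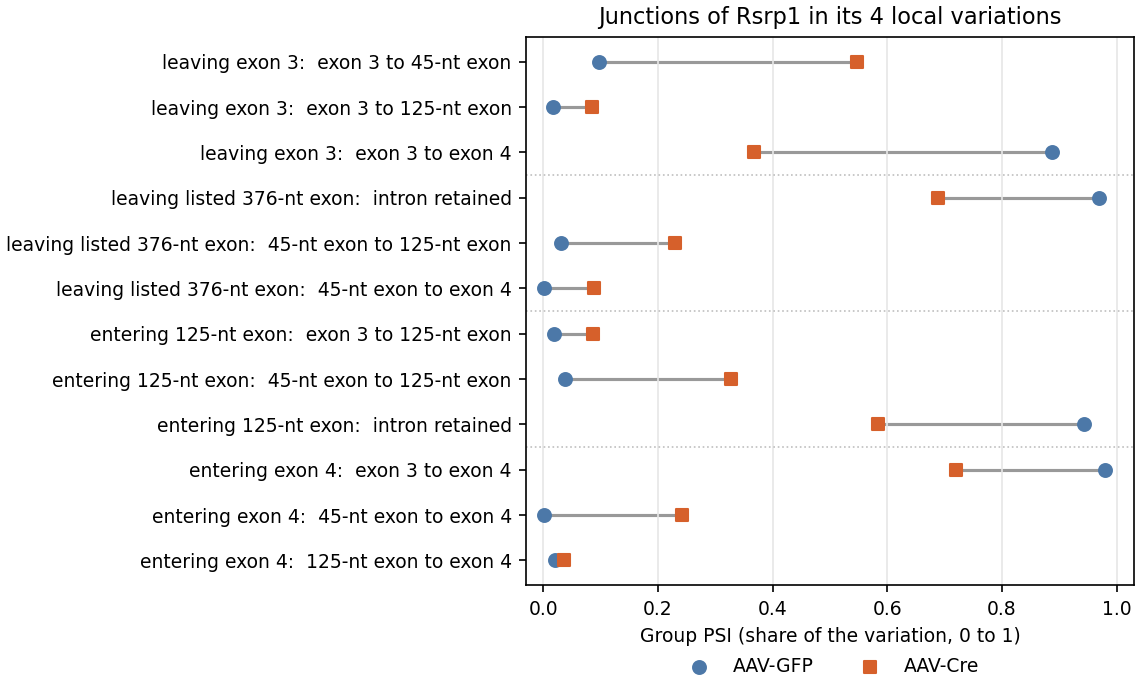
Group PSI (x axis, share of the variation from 0 to 1) of the 12 listed junctions and retained introns in the 4 local variations of Rsrp1, with a blue circle for AAV-GFP and an orange square for AAV-Cre; dotted lines separate the variations, and the listed 376-nt exon ends with the 45-nt exon. Junctions that join exon 3 to exon 4 and the intron between the extra exons are lower in AAV-Cre, and every junction into or out of an extra exon is higher, by as little as 0.020 to 0.036 for the junction from the 125-nt exon to exon 4.

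In the 298-codon transcript of Rsrp1, either extra exon stops the frame after 234 codons, at a TGA that begins at base 7 of the inserted exon. With the 45-nt exon 2 exon junctions lie downstream, the last 120 nt from the stop codon, and with the 125-nt exon 2 lie downstream, the last at 200 nt. With both exons 3 lie downstream. The 45-nt exon carries this stop codon although its length is a multiple of 3.

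Across the 6 genes, an extra exon with a stop codon in the frame was found for U2af2, Rbm39 and Rsrp1, while the alternative stretches of Luc7l2 and Acin1 exon 11 kept the frame and those of Slu7 lay in the 5′ untranslated region. Where a junction of such an exon was set against one that skips it, its change was positive, though not every change passed. The genes were selected on these changes, and the same count over other listed exons was not made. Nothing is therefore read from this direction. The junction into that of U2af2 was higher in AAV-Cre by 0.137 in the authors' deposited table, and the junction from exon 3 into the 45-nt exon of Rsrp1 by 0.462. The junction from exon 3 into the 125-nt exon of Rsrp1 had an expected change of 0.0412, below 0.2. It belongs to the same set as the junction into the 45-nt exon, so these changes are not separate. Into exon 4, the expected change was 0.226 from the 45-nt exon and only 0.000789 from the 125-nt exon. The 72-nt exon of Rbm39 had a change of 0.192 that did not pass. The spliced junction into the 73-nt exon of Rbm39 was lower in AAV-Cre (-0.316), with the intron before it retained more. That value compares ways into the same exon and gives no direction for its inclusion. Transcript levels and decay were not measured in these tables. Of the 19 distinct junctions in the 9 variations, 16 are in an annotated transcript and 3 are not.

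**Figure D5:**
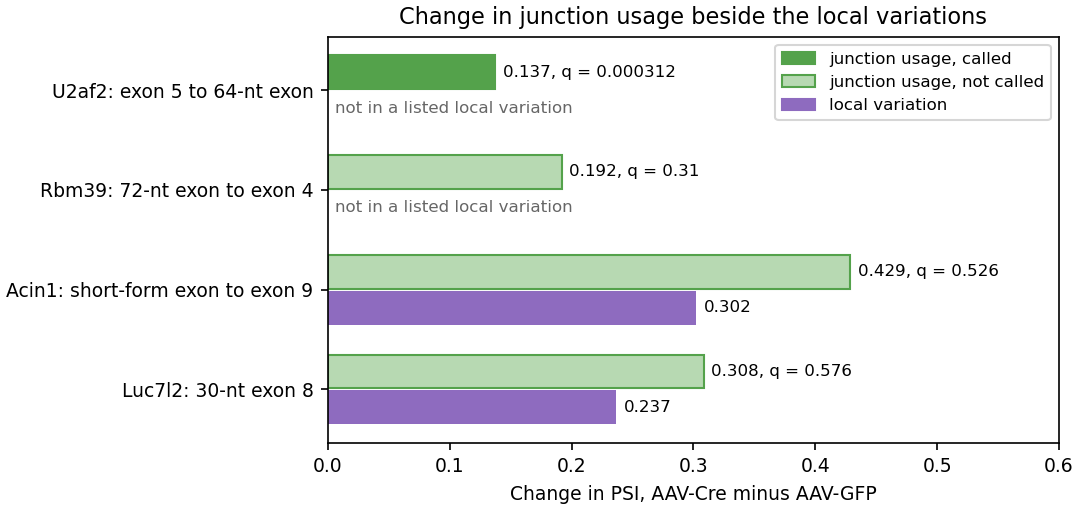
Change in PSI, AAV-Cre minus AAV-GFP (x axis), for 4 junctions or exons in the junction usage table (green). Dark green marks those that passed a q-value of 0.05 with a change of at least 0.1, pale green those that did not. Purple gives, where listed, the matching junction in the local variations. The paired bars are different measures: the Acin1 event compares 2 junctions while its variation holds further donors, and the Luc7l2 event gives 1 value for the exon. U2af2 has the smallest change, 0.137, and the smallest q-value, 0.000312, while the short-form exon of Acin1 has the largest, 0.429, with q = 0.526.

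Motifs linked to SRSF3 binding were searched on the sense strand of the 6 extra exons. CATC occurred once in the 64-nt exon of U2af2 (held by 27.4% of 846 annotated internal exons of that length) and once in the 72-nt exon of Rbm39 (30.6% of 1334). It did not occur in the 73-nt exon of Rbm39 (30.2% of 998), in exon 8 of Luc7l2 (10.8% of 297) or in the 45-nt (14.8% of 677) and 125-nt (50% of 1185) exons of Rsrp1. A set of 8 pentamers was also searched, those in which C is the second and the last base and each other base is A or T, so that ACATC and TCATC overlap with CATC. The set matched once in the 73-nt exon of Rbm39, as TCTAC, and once in the 125-nt exon of Rsrp1, as ACTAC. Among exons of the same length, 50.3% and 68.7% hold at least 1 of them. The other 4 exons held none, against 43.5% for the length of U2af2, 46.2% for the 72-nt exon of Rbm39, 22.9% for Luc7l2 and 27.5% for the 45-nt exon of Rsrp1.

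Of 77 other genes for splice site recognition, SR proteins and their kinases, 14 were listed in either table and 63 were not. The list was drawn up with earlier results of these data known. All 7 with a local variation were called, as were 95.2% of all listed variations. Among them Srsf6, an SR protein, had the largest change: its most changed junction went from a PSI of 0.185 in AAV-GFP to 0.837 in AAV-Cre. In Thrap3, an RS-domain protein, the PSI of that junction was 0.339 and 0.717. From AAV-GFP to AAV-Cre, the most changed junction went from 0.993 to 0.716 in Bclaf1, which is related to Thrap3, and from 0.591 to 0.170 in Ccnl1, a cyclin found in nuclear speckles. SR protein genes with a lower share at their most changed event were Srsf2 (0.956 to 0.650), Srsf10 (0.883 to 0.663) and Srsf5, where it was a retained intron (0.816 to 0.416). Shares in a set sum to 1, so a higher or lower share at 1 junction gives no direction for the gene. Of 11 with a junction usage event, 1 passed, Srsf2, with q = 8.57e-05 and a largest change of 0.149 in the authors' deposited table. Of all listed events, 11.4% passed.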

How the data were processed

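The labels' protocols describe paired-end sequencing of 8 stranded mRNA libraries, 4 for each virus. FastQC, STAR and mm10 are named in the submitters' processing notes, with no versions. Group PSI, a fraction, and its expected change were deposited in the column layout of MAJIQ and VOILA per the file headers. The change was deposited as AAV-GFP minus AAV-Cre, and its sign was turned. The column headed as a probability was not used: it lay between 0.999 and 1 for all 26 junctions of the members, including 5 with a change under 0.02. The junction usage table, made with JUM, lists events at a p-value under 0.05 with p-values, q-values and changes in PSI per the file headers. Values of its alternative splice site events were read in the order of the listed coordinates. This was checked on junctions shared with the local variations that changed by at least 0.1 in both. Where several variations matched, the most changed was taken. Of 79 such junctions, 78 then had the same sign, and the mirrored values of an event count separately among them. Coordinates of the 2 tables were matched within 2 nt. Values of single libraries are in neither table, which leaves depth and spread unknown.

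The members and lists were chosen with earlier results of these data known. Named genes were the 6 members, Srsf3, genes of the list called in either table, and genes listed at a member's coordinates. A variation was called at a change of at least 0.2, an event at a q-value of 0.05 and a change of at least 0.1. Exons, frames and sequences came from GENCODE vM21. Tested on simulated data, the call rules gave the built answer for 400 of 400 variations and 300 of 300 events, which checks the code of the thresholds alone. Alternatives changed these thresholds and the junctions or variations counted. Python 3.11.15, numpy 2.4.6, pandas 2.3.3 and matplotlib 3.10.9 were used.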

Additional observations from a re-analysis of the deposited data

How the results depend on the processing

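Of 13 alternatives, 6 left a count within 1.5 times of its value. Asking for a change of at least 0.3, 4 of the 9 variations passed (Rsrp1 with 2, Rbm39 and Acin1 with 1 each), and 501 of the 862 listed. With only junctions whose ends both fall exactly on borders of listed exons, 8 of the 9 passed, and Slu7 did not. The exon listed for Slu7 starts at 43437343, while its junctions enter at 43437345 and so miss that border. The loss of Slu7 thus reflects this offset and says nothing about its change. Taking the difference of the group PSI values in place of the expected change left 9. Among the junction usage events of the 6 genes, 2 passed with a q-value of 0.1 (U2af2 and Rsrp1; 15.1% of all events) and 0 with a change of at least 0.2 (9.24%). A p-value of 0.05 is met by all 498 listed events, so in its place the change of 0.1 alone decided: 5 events of the 6 genes (64.5% of all events) and 11 of the 77 other genes were then called, from which nothing is read. Outside windows of 100 kb that hold 8 or more listed variations, 438 of 439 variations passed. No paired analysis was possible because the tables hold 1 value per group and no column per library. For the same reason no library could be left out, and the depth that limits each PSI is unknown.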

Other observations

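For 18 of the 26 listed junctions and introns of the 6 genes, the deposited expected change was nearer 0 than the difference of the deposited group PSI values, and in 0 of 26 the signs were opposite. The gap was at least 0.05 for 2 of the 26, both in Slu7, and for 141 of all 6866 listed junctions. Among the other members the next largest gaps were at exon 8 of Luc7l2 (a difference of 0.277 and an expected change of 0.237) and at the junction from the 45-nt exon to exon 4 of Rsrp1 (0.087 and 0.0512).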
